A study of Mus musculus with 12 samples.

Results

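The transcripts of 10 subunits of the vacuolar proton pump, the V-ATPase, were followed in mouse quadriceps. They were Atp6v1a, Atp6v1b2, Atp6v1c1, Atp6v1d, Atp6v1e1 and Atp6v1h of the V1 sector, Atp6v0a1, Atp6v0c and Atp6v0d1 of the V0 sector, and the accessory subunit Atp6ap1. The members were taken by gene symbol, and all 10 were found among the 15344 genes that both deposited tables list. RNA was sequenced from whole quadriceps of 3 groups of 4 mice each, all on a C57BL/6 background and 6 months old. WT mice were untreated. KO mice carried a GAA knock-out and had been injected with PBS at 2 months of age. AAV mice carried the same GAA knock-out and had been injected in the tail vein, at 2 months of age, with 2e12 vg/kg of AAV2/8-LSPhGAApA, a vector that makes human GAA from the liver and not in muscle itself. The methods give male sex for the knock-out mice only. GAA is the lysosomal acid alpha-glucosidase that digests glycogen and is missing in Pompe disease.

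The V-ATPase pumps protons into lysosomes, endosomes and other compartments and so gives lysosomal enzymes such as GAA their acid surroundings. Its V1 sector lies in the cytosol and splits ATP. Its V0 sector lies in the membrane and carries the protons, and the sectors come apart and rejoin as the pump is switched off and on. Many of its genes, together with other lysosomal genes, are targets of the transcription factors TFEB, TFE3 and MITF, and the pump also takes part in the nutrient sensing that governs mTORC1 on the lysosomal surface. In bone, osteoclasts use particular isoforms of it to acidify the space under the cell, and macrophages hold many lysosomes.

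Each library held between 22122233 and 47379737 counted reads, with 22122233 to 31974197 in the AAV libraries and 31225360 or more in the others. The targeted gene, Gaa, went against the labels, with more reads in the libraries labelled KO than in most others. Its normalized counts were 343, 14640.2, 324 and 460.3 in WT libraries 1 to 4, between 11936 and 13074 in the libraries labelled KO, and 947, 587, 499.6 and 9854 in AAV libraries 1 to 4. WT library 2 and AAV library 4 therefore stood apart from the rest of their groups, and all groups below are named as the libraries are labelled. Whether the labels, or a knock-out allele that still yields counted reads, go with these Gaa counts was not tested. The paper also assayed GAA activity and glycogen in parts of these quadriceps, which are not reported here. In WT library 3 the summed count of the macrophage markers stood apart, as given with the members further on. Between the libraries labelled KO and WT, 8 of 8 slow-fibre genes fell (median log2 fold change -3.42, limma with Benjamini-Hochberg adjustment), of which 4 (Tnni1, Tnnt1, Tnnc1 and Atp2a2) kept the call without WT library 2, WT library 4 or KO library 1, and their summed normalized count was between 3436 and 6818 in WT, 1122 and 1331 in KO, and 3010 and 24841 in AAV libraries. Of other marker lists in the same comparison, where 12.3% of all genes rose and 15.3% fell, 1 of 8 fast-fibre genes rose and 2 fell, 2 of 6 endothelial genes rose, 1 of 6 Schwann cell genes fell and 1 of 6 osteoclast genes rose. With 1 library left out the endothelial count ran from 0 (without WT library 2, among others) to 5 (without WT library 3), the fast-fibre count fell to 0 without WT library 4, the Schwann cell count ran from 0 (without WT library 1, 2 or 4 or KO library 4) to 4 (without WT library 3), and the osteoclast count from 0 (without KO library 3) to 3 (without WT library 3). Fibroblast, adipocyte and blood markers gave 0 calls by limma, with 1 at an unadjusted p under 0.05 in each list and, by DESeq2, 1, 1 and 0. Between AAV and KO, where 12.8% of all genes rose and 13.4% fell, 7 of 8 slow-fibre genes rose (median log2 fold change 5.18). Of 8 fast-fibre and 5 blood genes 2 each rose, and 1 of 4 osteoclast genes tested fell. Macrophage markers gave 0 calls by limma and 3 higher by DESeq2. With 1 library left out the slow-fibre count ran from 6 to 8, and the fast-fibre and blood counts fell to 0 without AAV library 1. In whole muscle, fewer cells of a type and less RNA per cell cannot be told apart.

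In the gene models used (GENCODE M21 on GRCm38), Atp6v1e1 lies at chr6:120794305-120822793 and Atp6v0d1 at chr8:105524465-105566047 on the - strand, Atp6v1h at chr1:5070018-5162529 on the + strand, Atp6v0c at chr17:24163866-24169702 on the - strand. Per kilobase of exon, the members spanned a wide range of levels in WT muscle. Atp6ap1, which binds V0 and helps it assemble, was the highest with 1277 ± 284 normalized counts per kilobase (SD, n = 4). It was followed by Atp6v1e1 of the peripheral stalks with 1079 ± 161 and by Atp6v0d1, which seats the central stalk on the membrane ring, with 889 ± 139. The ranges of neighbours in this order of 3 overlapped. A lower group was formed by Atp6v1d of the central stalk (567.6 ± 66.6), Atp6v0a1, the large membrane subunit beside the proton ring (418 ± 61.6), and Atp6v1b2, the non-catalytic subunit of the ATP-splitting head (377 ± 16.6), again with overlapping neighbours. Atp6v1c1 and the catalytic subunit Atp6v1a lay lower, at 172 ± 6.10 and 163 ± 44.5 counts per kilobase, with overlapping ranges. Atp6v1h, a regulatory subunit of V1, had 71.8 ± 14.3. Atp6v0c, the subunit of which most of the proton ring is built, was listed lowest with 8.31 ± 3.23. How far this place depends on the split of reads with a copy, described further on, was not tested. The first 7 places of this order of levels were the same in the KO and the AAV libraries. Exon lengths were those of all annotated transcripts of a gene joined (9746 bases for Atp6v1h, 1793 for Atp6v0d1), so that long transcripts that muscle may not use lower these levels.

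The first comparison asked how the libraries labelled KO differ from those labelled WT. Of the 10 members, 4 passed an adjusted p of 0.05 (limma on log2 of the normalized count plus 1, Benjamini-Hochberg over 14859 genes), where 27.6% of all genes tested did so. Atp6v1e1, Atp6v1h and Atp6v0d1 fell, 3 of 10 against 15.3% of all genes in that direction, and Atp6v0c rose, 1 of 10 against 12.3%. Without Atp6v0c, 8 of the other 9 members had a negative log2 fold change, between -0.73 and 0.22 over the 9. The median over all 10 was -0.31, against 0.02 over all genes. Groups did not overlap for 5 members, where 28.3% of all genes had no overlap. In 4 of them the KO libraries were the lower (15.1% of all genes) and in 1 the higher (13.3%). Only Atp6v0c also reached an absolute log2 fold change of 1, a size that 13.9% of all genes combined with the same adjusted p.

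**Figure D1:**
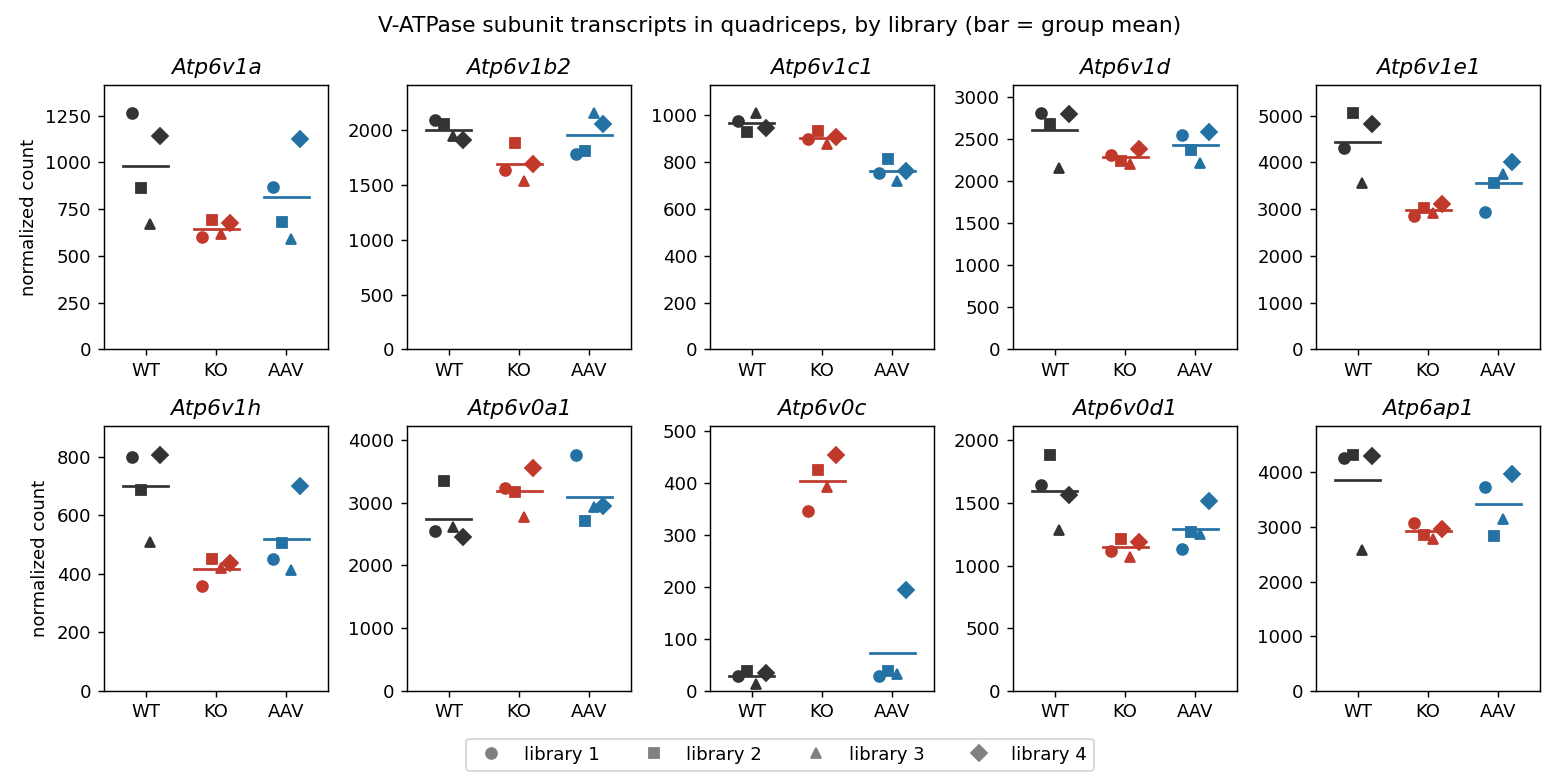
Normalized counts of each member (vertical axis, from 0, a scale of its own for each gene) in the 4 WT, 4 KO and 4 AAV libraries, with 1 marker shape per library number and a bar at the group mean. Atp6v0c is at 345 or more in every KO library and at 38.3 or less in every WT library, and WT library 3, the triangle, is the lowest WT library for 7 of the 10 members.

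In the ATP-splitting head of V1, Atp6v1a, the subunit that binds and splits ATP, had normalized counts of 1263, 862, 669 and 1141 in WT libraries 1 to 4 and of 600.0, 690.1, 620.0 and 676 in KO libraries 1 to 4. The groups overlapped through WT library 3 alone. Its log2 fold change was -0.56 (95% confidence interval -0.99 to -0.14, adjusted p = 0.0524, limma with Benjamini-Hochberg adjustment), just short of the threshold. It passed with DESeq2 on the recovered reads (adjusted p = 0.0175, Benjamini-Hochberg) and with WT library 3 left out (log2 fold change -0.74, adjusted p = 0.00210, limma). Its partner in the head, Atp6v1b2, had 2092, 2057, 1945 and 1908 normalized counts in the WT libraries and 1639, 1883, 1531 and 1691 in the KO libraries. These groups did not overlap, yet the log2 fold change of -0.25 did not pass (adjusted p = 0.107, limma with Benjamini-Hochberg adjustment).

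In the stalks of V1, Atp6v1e1, which with a G subunit builds the 3 peripheral stalks that hold the head in place, had 4314, 5048, 3556 and 4822 normalized counts in the WT libraries and 2859.97, 3033, 2923 and 3115 in the KO libraries. Every KO library lay below every WT library. The gene fell by 0.56 on the log2 scale (standard error 0.13, adjusted p = 0.0127, limma with Benjamini-Hochberg adjustment), to 0.678 of the WT level, and passed in each of the 8 fits that left out 1 library. Atp6v1h, which links the stalks to the membrane sector and silences ATP splitting in free V1, had 798, 688, 507 and 808 in WT and 357, 449, 419.8 and 438 in KO libraries, again without overlap. It fell by 0.73 (standard error 0.17, adjusted p = 0.0129, limma with Benjamini-Hochberg adjustment), to 0.602 of the WT level, and also passed in 8 of 8 such fits. A stretch of 129 bases of Atp6v1h also lies in a transcript of Rgs20 on the opposite strand. Atp6v1c1, the subunit that clamps the stalks and leaves when V1 comes off the membrane, had a log2 fold change of -0.09 (95% confidence interval -0.32 to 0.13), and the rotating Atp6v1d had -0.18 (interval -0.45 to 0.08). Neither passed, and both groups overlapped.

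In V0, Atp6v0d1 had 1646, 1887, 1282 and 1559 normalized counts in the WT libraries and 1116, 1214, 1066 and 1185 in the KO libraries, with no overlap. It fell by 0.46 (standard error 0.13, adjusted p = 0.0300, limma with Benjamini-Hochberg adjustment). This call was not firm. It was lost in 7 of the 8 fits that left out 1 library, all but the one without WT library 3, with an adjusted p of up to 0.0816, and the gene length correction gave -0.16 (adjusted p = 0.289, limma). Atp6v0a1, one of 4 isoforms of the large V0 subunit, had between 2458 and 3336 in WT and between 2764 and 3545 in KO libraries, and its log2 fold change of 0.22 (95% confidence interval -0.08 to 0.52) did not pass. Atp6ap1 had 4266, 4327, 2577 and 4292 in WT and 3078, 2860.5, 2771 and 2969.99 in KO libraries. WT library 3 lay below every KO library and the other WT libraries above them. The log2 fold change was -0.37 (adjusted p = 0.126, limma with Benjamini-Hochberg adjustment) with all libraries and -0.56 (adjusted p = 0.000900, limma) without WT library 3, without which 7 members passed in place of 4 and, of all genes, 7163 in place of 4097.

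**Figure D2:**
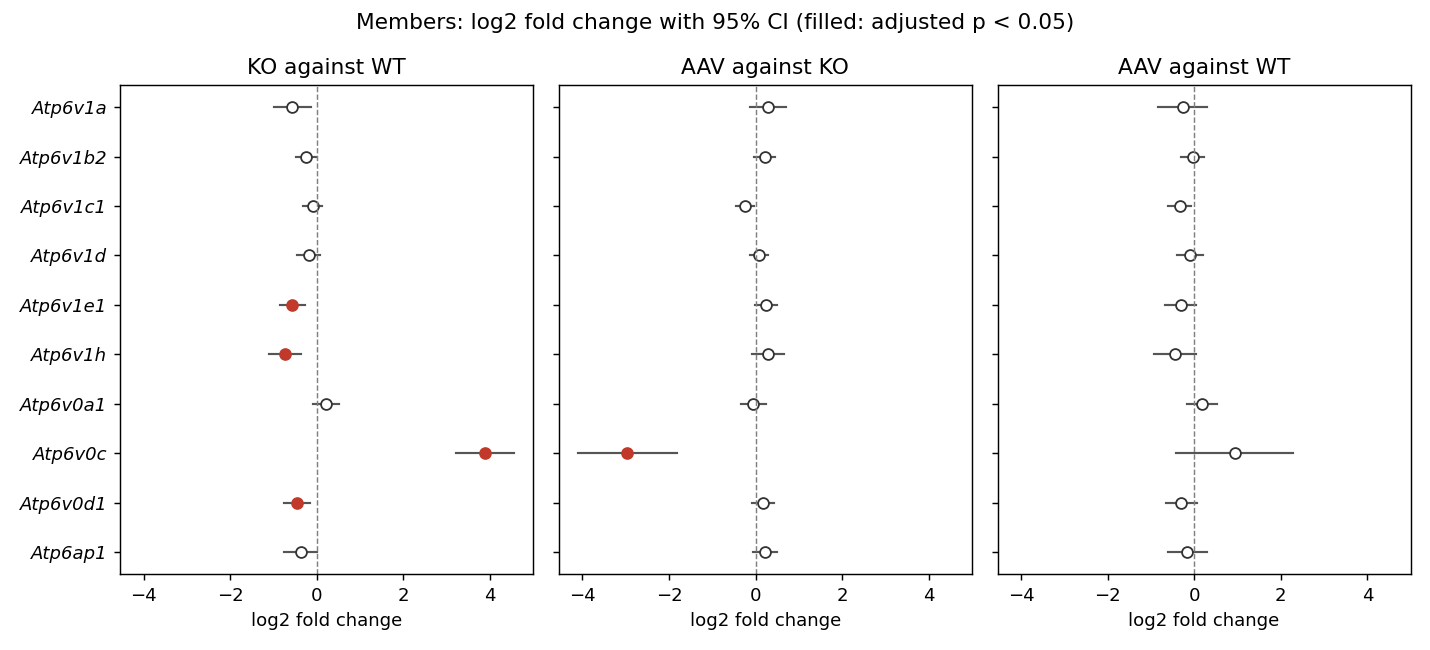
Log2 fold change of each member (horizontal axis, common to the 3 panels) between the libraries labelled KO and WT, AAV and KO, and AAV and WT, with its 95% confidence interval from limma, and a filled point where the adjusted p is under 0.05. Filled points are 4 in the first panel, 1 in the second and 0 in the third, and Atp6v0c has the widest interval in each panel.

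Atp6v0c moved the other way, and how reads were split between it and a near-identical copy is uncertain. It had 28.1, 38.3, 12.99 and 33.2 normalized counts in WT libraries 1 to 4, 345, 425, 393 and 454 in the KO libraries, and 27.6, 38.3, 31.9 and 194 in the AAV libraries. The KO libraries lay far above all others, and AAV library 4 lay between. The log2 fold change was 3.89 between KO and WT (standard error 0.30, adjusted p = 8.57e-05) and -2.96 between AAV and KO (standard error 0.52, adjusted p = 0.00608, both limma with Benjamini-Hochberg adjustment). Without the libraries apart in Gaa these were 4.07 (WT library 2 left out) and -3.60 (AAV library 4 left out). The processed pseudogene Atp6v0c-ps2 (ENSMUSG00000080242, chr6:37806086-37806550, + strand of GRCm38, GENCODE M21), a copy of the coding part without introns, went the opposite way. It had 375, 584, 369 and 331 normalized counts in WT, 3.86, 5.13, 1.09 and 2.65 in KO, and 147, 243, 257 and 94.5 in AAV libraries. Its log2 fold change was -6.71 between KO and WT (adjusted p = 7.01e-06) and 5.48 between AAV and KO (adjusted p = 9.04e-05, both limma with Benjamini-Hochberg adjustment). Of the summed count of the pair, Atp6v0c held between 3.40% and 9.12% in WT libraries, between 98.8% and 99.7% in KO libraries and 15.7%, 13.6%, 11% and 67.2% in AAV libraries 1 to 4. WT library 2, although its Gaa count was as high as in the libraries labelled KO, kept the WT share (6.15%).

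The coding sequence of Atp6v0c (468 bases with its stop codon, 155 residues) and the 465 bases of the copy were aligned, and 464 of 465 bases were identical, with no gap. The one difference is T111C, counted from the first base of the start codon, with the gene's base first. It is the third base of codon 37, AGT in the gene and AGC in the copy, in exon 2 of Atp6v0c at chr17:24164851 (- strand) and at position 37806196 of chromosome 6. The longest stretch without a difference was 354 bases, and 715 of the 1183 bases of the transcript lie outside the coding part. The 121 coding bases around the difference are printed to show how little separates the pair, with that base in capitals. In the gene they span an intron (chr17:24164791-24169234, - strand), and in the copy they are continuous (chr6:37806136-37806256, + strand).
Atp6v0c: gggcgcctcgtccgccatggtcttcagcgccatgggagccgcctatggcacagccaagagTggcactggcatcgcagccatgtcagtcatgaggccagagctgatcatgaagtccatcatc
Atp6v0c-ps2: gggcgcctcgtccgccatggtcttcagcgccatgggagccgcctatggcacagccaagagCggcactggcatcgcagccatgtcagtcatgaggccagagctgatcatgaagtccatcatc
The authors kept reads with a single location, and which bases of the pair those reads covered was not tested.

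With the pair summed, an alternative chosen after seeing the data, the normalized counts were 403, 622, 382 and 364 in WT, 349, 430.1, 394 and 457 in KO, and 175, 281, 289 and 288 in AAV libraries. WT and KO libraries then overlapped, and the difference was -0.09 on the log2 scale (adjusted p = 0.731, limma with Benjamini-Hochberg adjustment, standard error 0.19). Every AAV library lay below every KO and every WT library, with log2 fold changes of -0.68 against KO (adjusted p = 0.0247) and -0.77 against WT (adjusted p = 0.137, both limma with Benjamini-Hochberg adjustment). The rise of Atp6v0c in the libraries labelled KO was thus not seen in the pair as a whole. A further copy, Atp6v0c-ps1 (97.2% identity), and copies of parts of Atp6ap1 (Gm19109, 313 bases at 90.4%) and Atp6v1a (Gm18990, 296 bases at 90.2%) had no row in the tables analysed here.

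**Figure D3:**
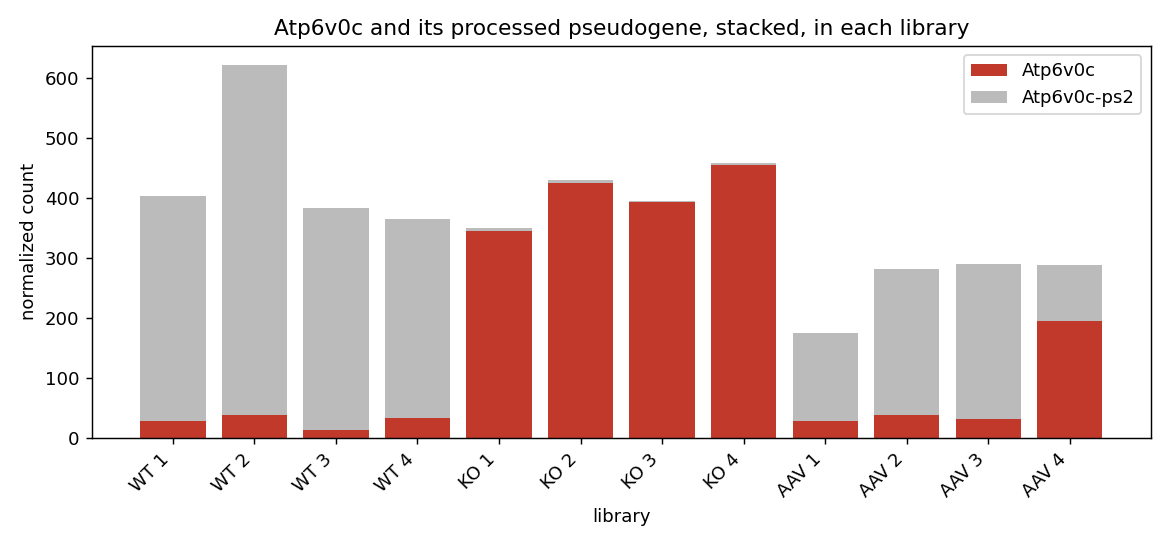
Normalized counts (vertical axis, from 0) of Atp6v0c and its processed pseudogene Atp6v0c-ps2, stacked, in each of the 12 libraries. The whole bars of the WT and KO libraries overlap in height (364 to 622 and 349 to 457), whereas the part held by Atp6v0c changes from at most 9.12% in WT to at least 98.8% in KO libraries.

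The second comparison set the libraries labelled AAV against those labelled KO, as the contrast of vector and PBS in knock-out mice. Of the 10 members, 1, Atp6v0c, passed between AAV and KO libraries (limma, Benjamini-Hochberg over 14894 genes), against 26.3% of all genes tested. It fell, as 13.4% of all genes did, and 0 members rose, against 12.8%, with 0 higher by DESeq2 and by edgeR with TMM scaling and 1 higher by edgeR on total counts. At an unadjusted p under 0.05 the count was 2. Atp6v0c also reached an absolute log2 fold change of 1, as 8.98% of all genes did. Of the other 9 members, 7 had a positive log2 fold change, and the 9 lay between -0.25 and 0.29. The median over all 10 was 0.19, against 0.04 over all genes. Without AAV library 4 it was 0.11, with Atp6v1a at 0.12 and Atp6v1h at 0.13 in place of 0.29 each. Scaling by total counts moved the median of all genes to 0.23 and that of the members to 0.37. Groups did not overlap for 2 members, Atp6v0c and Atp6v1c1, where 30.6% of all genes had no overlap. Both were lower in AAV libraries, as were 15.8% of all genes, against 14.8% higher. The comparison shares its KO libraries with the first. The members that were lower in the libraries labelled KO than WT gave 0.25 for Atp6v1e1 (95% confidence interval -0.01 to 0.50), 0.29 for Atp6v1h (-0.09 to 0.67) and 0.17 for Atp6v0d1 (-0.08 to 0.42), and none of these passed. Atp6v1e1 had 2938, 3549, 3745 and 4014 normalized counts in AAV libraries 1 to 4, where library 1 lay inside the KO range and the other libraries above it, and it passed when AAV library 1 was left out (0.34, adjusted p = 0.0464, limma with Benjamini-Hochberg adjustment).

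Atp6v1c1 was the member whose AAV libraries lay below those of both other groups. It had 974, 930.2, 1008 and 946 normalized counts in WT libraries, 899, 930.4, 879 and 908 in KO libraries, and 754, 813, 720.4 and 759.9 in AAV libraries. Its log2 fold change was -0.25 against KO (adjusted p = 0.0742) and -0.34 against WT (adjusted p = 0.180, both limma with Benjamini-Hochberg adjustment), so that neither passed. DESeq2 on the recovered reads put both below the threshold (adjusted p = 0.0205 and 0.0448, Benjamini-Hochberg), and scaling by total reads brought the difference from KO to -0.07. Atp6v1c1 also had the smallest spread of the members within each group, with an SD of log2 values of 0.05 in WT, 0.03 in KO and 0.07 in AAV libraries.

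In the third comparison, between the libraries labelled AAV and WT, 0 of 10 members passed (limma, Benjamini-Hochberg over 14939 genes), against 1.29% of all genes. At an unadjusted p under 0.05 the count was 1, Atp6v1c1, and DESeq2 called 1 and edgeR 0 of 10. Atp6v1c1 was also the 1 member whose groups did not overlap, where 11.7% of all genes had no overlap (4.97% lower in AAV libraries, 6.69% higher). The median log2 fold change of the members was -0.21, against -0.03 over all genes, and -0.06 against 0.12 with scaling by total counts. With 1 library left out the median of the members ran from -0.33 (without WT library 3) to -0.12 (without WT library 1). The intervals stayed wide for most members, from -0.92 to 0.03 for Atp6v1h and from -0.84 to 0.30 for Atp6v1a.

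Within groups, WT library 3 and AAV library 4 stood out for most members, but not for all. WT library 3 was the lowest of the WT libraries for 7 of the 10 members, and AAV library 4 was the highest of the AAV libraries for 7 of the 10. Atp6v1c1, in contrast, had its highest WT value in WT library 3. The mean of the centred log2 values of the 9 members other than Atp6v0c was 0.28, 0.27, -0.09 and 0.25 in WT libraries 1 to 4, -0.19, -0.10, -0.23 and -0.10 in KO libraries, and -0.03, -0.10, -0.12 and 0.17 in AAV libraries. AAV library 4 thus lay between WT libraries 1, 2 and 4 and all others, and WT library 3 lay just above the KO libraries. This mean hides members that went both ways, since WT library 3 was above all KO libraries for 5 of the 10 members, below all of them for 4 and inside their range for 1, Atp6v1a. The SD of a member's log2 values within a group had a median of 0.23 in WT, 0.09 in KO and 0.20 in AAV libraries, against 0.29, 0.14 and 0.26 for the 9744 genes with a mean normalized count of at least 100. Over the 12 libraries, Pearson correlations between members ran from -0.60 for Atp6v1b2 with Atp6v0c to 0.95 for Atp6v1e1 with Atp6v0d1, a description over libraries that share their groups. Of the 45 pairs, 17 were negative, among them Atp6v0a1 with Atp6v1h (-0.49) and with Atp6v1e1 (-0.44).

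Several lists of other genes set the same libraries apart, macrophage markers among them. The summed normalized count of 10 of them (Adgre1, Cd68, Csf1r, Cd163, Mrc1, Itgam, C1qa, C1qb, Cd14 and Lyz2) was 1566 in WT library 3 and between 4118 and 4966 in the other WT libraries, and 4507 in AAV library 4 and between 942 and 2003 in the other AAV libraries. In the KO libraries it lay between 888 and 1616. Between KO and WT libraries 6 of the 10 fell (15.3% of all genes) and 1, Cd163, rose (12.3%) by limma with Benjamini-Hochberg adjustment. Cd68, C1qa, Cd14 and Lyz2 kept the call in 8 of 8 fits that left out 1 library, Adgre1 in 3, Cd163 in 2 and C1qb in 1, and 0 of the 10 were at 0 in any library. Cd68, a lysosomal membrane protein of macrophages, had 560.1, 590.0, 69.8 and 567.6 normalized counts in WT, 36.7, 28.2, 33.7 and 30.9 in KO, and 127, 74.5, 35.4 and 415 in AAV libraries. Cd163 ran against the sum in WT library 3 (119 against 68.0 to 93.6 in the other WT libraries), and Mrc1 lay inside the WT range (149). In AAV library 4 Cd163 lay inside the AAV range (131), and Mrc1 was level with AAV library 1 (201.9 and 199.8). The sum of 6 osteoclast genes was 96.6 in WT library 3 against 233 to 299 in the other WT libraries, and 325 in AAV library 4 against 117 to 139.9 in the other AAV libraries, and it was 94.7, 145, 298 and 111 in KO libraries 1 to 4. The sum of 6 endothelial genes ran opposite, with 4776 in WT library 3 against 1683 to 2721, and 3231 in AAV library 4 against 3550.3 to 5427. The summed count of 9 genes of an assembly list, described further on, was also high in WT library 3 (5917 against 3469 to 4337). It was lowest in AAV library 4 (3198 against 3681 to 4278). In WT library 3 this sum was high through Oxr1 (2382 against 678 to 1121), Dmxl1 (1019 against 208 to 535) and Wdr7 (954 against 611 to 863). Vma21, Tmem199, Ccdc115, Dmxl2, Rogdi and Ncoa7 had their lowest WT value there. In AAV library 4 Oxr1 (435) and Dmxl1 (318) were lowest, and Dmxl2, Rogdi and Ncoa7 highest, of the AAV libraries. The sum of 12 other subunits of the pump was 9145 in WT library 3 against 11903 to 13900, and 12527 in AAV library 4 against 9583 to 10499. The slow-fibre sum was 4035 in WT library 3, inside the WT range, and 3010 in AAV library 4, below the other AAV libraries. The fibroblast sum was 14294 in WT library 3, inside the WT range, and 26344 in AAV library 4, above the other AAV libraries (10049 to 18589.5). The part of these cells in the members' differences was not tested.

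**Figure D4:**
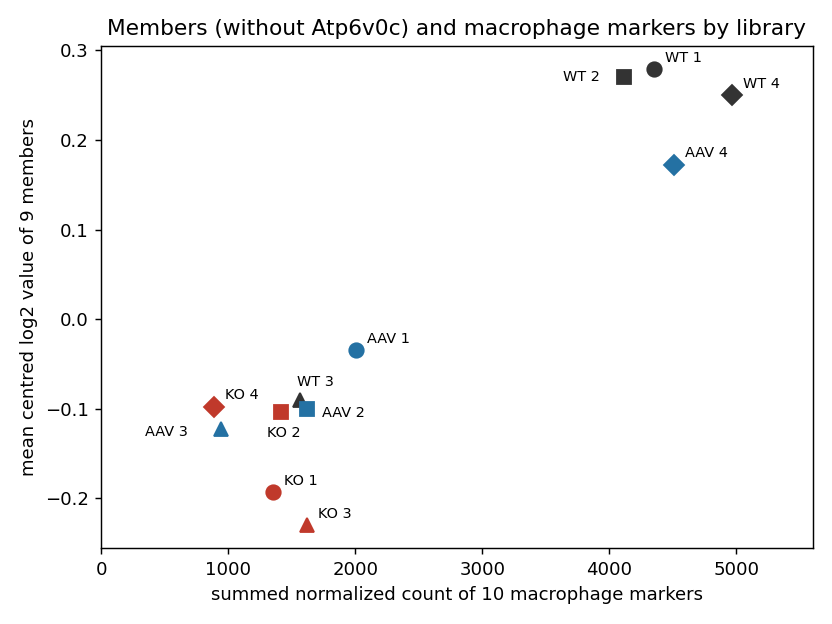
Mean centred log2 value of 9 members (Atp6v0c left out, vertical axis) against the summed normalized count of 10 macrophage markers (horizontal axis, from 0) in each of the 12 libraries, 1 point each. WT libraries 1, 2 and 4 and AAV library 4 lie apart at marker sums of 4118 or more and member means of 0.17 or more, and the other 8 libraries lie at sums of 2003 or less and means below 0.

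Other subunits of the pump were then taken as a list of 17, of which 12 were in the tables. Between the libraries labelled KO and WT, 4 of these 12 fell (15.3% of all genes) and 0 rose (12.3%) by limma with Benjamini-Hochberg adjustment, with 5 at an unadjusted p under 0.05, and DESeq2 and edgeR with TMM scaling also called 4 lower and 0 higher. The median log2 fold change was -0.45, against 0.02 over all genes. Atp6ap2, the prorenin receptor and an accessory subunit of V0, had 1091, 504, 612 and 793 normalized counts in WT and 425, 355, 356 and 329.8 in KO libraries, with no overlap, and fell by 0.98 (standard error 0.22, adjusted p = 0.0122). Atp6v0b, a minor subunit of the proton ring, fell by 0.59 (adjusted p = 0.0199) and Atp6v1f, a small part of the central stalk, by 0.67 (adjusted p = 0.0300, limma throughout). The call of Atp6v0b was kept in 6 of 8 fits that left out 1 library and that of Atp6v1f in 1, without WT library 3. The count of 4 became 1, Atp6ap2, without WT library 4 or KO library 1, 2 without WT library 1, WT library 2 or KO library 4, and 6 without WT library 3. Atp6v0d2, the d isoform of osteoclasts and macrophages, was scarce. It had 21.7, 17.01, 1.62 and 39.99 normalized counts in WT and 0, 1.71, 2.18 and 0 in KO libraries, and fell by 3.08 on the log2 scale of the count plus 1 (adjusted p = 0.0238, limma), with overlap through WT library 3. This call was kept in 3 of 8 fits that left out 1 library and was lost without WT library 2.

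Between AAV and KO libraries, 11 of these subunits were tested, of which 4 rose and 1 fell, where 12.8% of all genes rose and 13.4% fell, and the median log2 fold change was 0.39, against 0.04 over all genes. Atp6v0b rose by 0.43 (adjusted p = 0.0348) and Atp6ap2 by 0.62 (adjusted p = 0.0366). Tcirg1, the a3 isoform that osteoclasts use, rose by 0.92 (adjusted p = 0.0317), with 445, 275, 236 and 584 normalized counts in AAV and 191, 214, 202 and 158 in KO libraries. Rnasek, a small protein bound to V0, rose by 0.83 (adjusted p = 0.0415), from between 16.4 and 32.5 to between 35.4 and 40.4 normalized counts, and lost its call with DESeq2 and with edgeR on TMM scaling. Atp6v0a2, an a isoform of Golgi and endosomes, fell by 0.58 (adjusted p = 0.0151, limma with Benjamini-Hochberg adjustment throughout), and its 4 AAV libraries (296 to 422) lay below all KO libraries (483 to 589.8). The 4 rises were each kept in at most 2 of the 8 fits that left out 1 library, whereas the fall of Atp6v0a2 was kept in 8 of 8. Between AAV and WT libraries 0 of 12 passed by limma, and 0 did at an unadjusted p under 0.05, by DESeq2 or by edgeR.

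**Figure D5:**
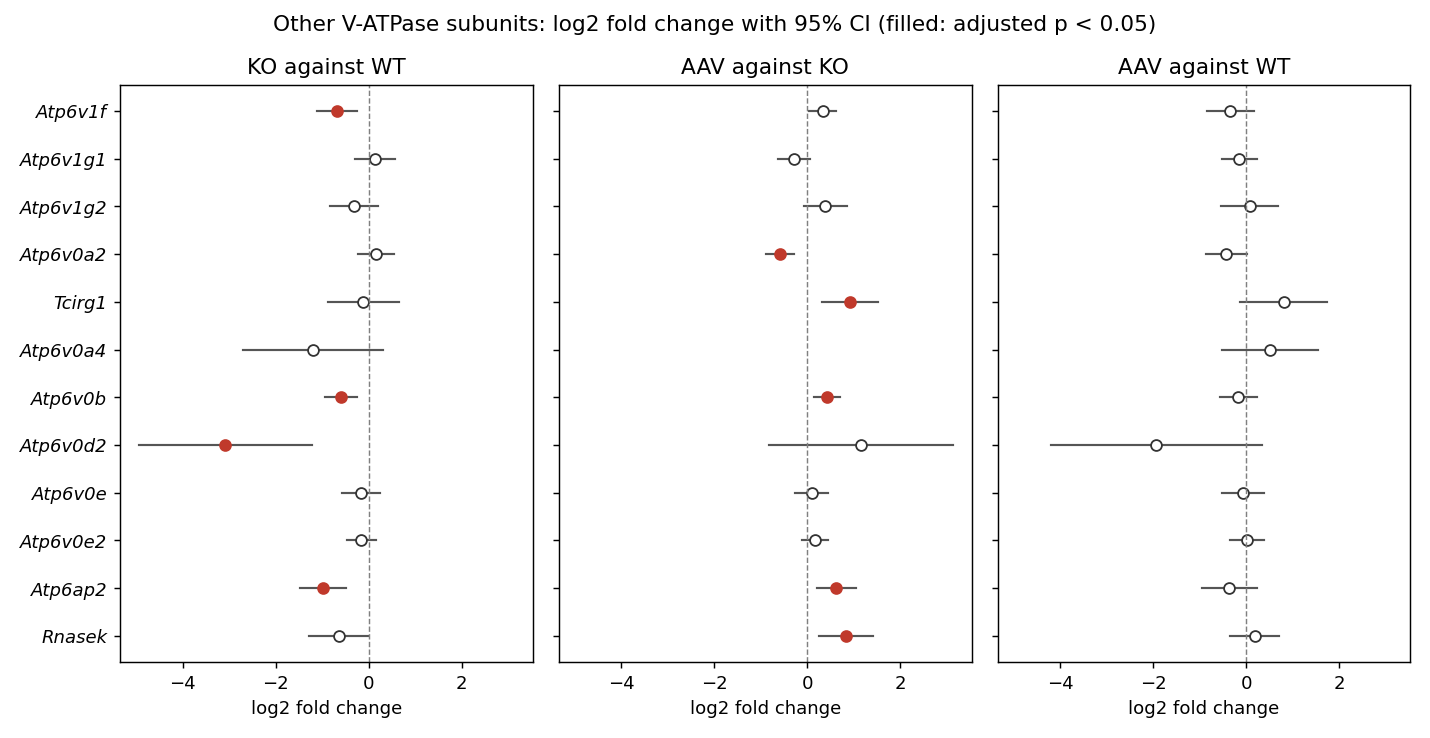
Log2 fold change of the 12 other subunits (horizontal axis, common to the 3 panels) with its 95% confidence interval from limma, in the same 3 comparisons, with a filled point where the adjusted p is under 0.05. Filled points are 4, all below 0, in the first panel, 5, of which 4 above 0, in the second, and 0 in the third, and Atp6v0a4 was too scarce to be tested between AAV and KO libraries.

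Of 11 genes listed around the assembly of the pump, where the role of each was not tested, 9 were in the tables. Wdr7, which with the Dmxl proteins and Rogdi forms the mammalian complex that joins V1 to V0, rose in the libraries labelled KO by 0.66 (adjusted p = 0.0140) and fell between AAV and KO by 0.83 (adjusted p = 0.00468, limma). It had 863, 611, 954 and 675 normalized counts in WT, 1214, 1169, 1130.1 and 1313 in KO, and 571, 753, 811 and 597 in AAV libraries, so that the KO libraries lay above all others. Its partner Rogdi ran opposite, at -0.78 (adjusted p = 0.0316) and 1.04 (adjusted p = 0.00796, limma), the first of which was kept in 3 of 8 fits that left out 1 library. Dmxl1 had 0.94 between KO and WT (adjusted p = 0.101), which did not pass, and fell between AAV and KO by 0.94 (adjusted p = 0.00771, limma). Between AAV and KO, Dmxl2 also rose (0.67, adjusted p = 0.0395) and Oxr1 fell by 1.33 (adjusted p = 0.00894, limma). In all, 1 rose and 1 fell of 9 in the first comparison, near the share of all genes (12.3% and 15.3%), and 2 rose and 3 fell in the second (12.8% and 13.4%). The 5 calls of the second became 4 without KO library 1, 2 or 4 or AAV library 1 or 4.

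The partners with which the pump senses nutrients, the Ragulator and Rag proteins, had 10 of 10 in the tables. Between KO and WT 0 were higher and 2 lower, near the share of all genes (12.3% and 15.3%). Between AAV and KO 2 were higher and 2 lower, where 12.8% of all genes rose and 13.4% fell. In the first of these 5 had an unadjusted p under 0.05, DESeq2 called 0 higher and 3 lower, and edgeR with TMM scaling 0 and 2. Lamtor1, which anchors Ragulator to the lysosome, fell by 0.63 in the first comparison (adjusted p = 0.0183), a call lost without WT library 4 or KO library 1, each of which left 0 of the 10 called, against 4 without WT library 3. Lamtor4, of the same complex, fell by 0.64 as well (adjusted p = 0.0382), a call kept in 1 of 8 fits that left out 1 library, and rose by 0.57 in the second (adjusted p = 0.00879), kept in 8 of 8. Lamtor2, also of Ragulator, rose by 0.44 in the second (adjusted p = 0.0149). The Rag GTPases Rragd, a TFEB target, and Rraga fell by 0.70 and 0.51 (adjusted p = 0.0161 and 0.0337, limma with Benjamini-Hochberg adjustment throughout). The 4 calls of the second comparison became 2 without KO library 2 and 5 without AAV library 2, and edgeR on total counts called 2 higher and 1 lower. Of 10 ion transporters beside the pump, 1 rose and 0 fell between KO and WT (12.3% and 15.3% of all genes). Between AAV and KO 0 rose and 3 fell (12.8% and 13.4% of all genes). Clcn4, a chloride-proton exchanger of endosomes, had 1754, 1337, 1637 and 1764 normalized counts in WT, 2771, 2575, 2662 and 2541 in KO, and 1749, 1792, 1545 and 1654 in AAV libraries. The KO libraries lay above all others, with a rise of 0.71 (adjusted p = 0.00405) and a fall by 0.65 (adjusted p = 0.00321, limma). Its relative Clcn3 (fall by 0.39, adjusted p = 0.0376) and Ostm1, the partner of Clcn7 (fall by 0.38, adjusted p = 0.0424), passed between AAV and KO and were kept in 1 and 2 of 8 such fits.

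Of the transcription factors that switch on lysosomal genes, Mitf rose in the libraries labelled KO by 0.77 (adjusted p = 0.0148) and fell between AAV and KO by 0.60 (adjusted p = 0.0276, limma). The second call was kept in 4 of 8 fits that left out 1 library and was lost with edgeR on total counts. Mitf had 327, 259, 463 and 283 normalized counts in WT, 575, 616, 509 and 524 in KO, and 347, 483, 384 and 278 in AAV libraries. Tfeb had log2 fold changes of -0.28 and 0.20 and Tfe3 of -0.29 and 0.49 in these comparisons, and none of the 4 passed by limma. Tfe3 between AAV and KO (adjusted p = 0.0545, limma) was called higher by DESeq2 and by edgeR. Between AAV and WT, 0 of the genes in these 4 lists (assembly, nutrient sensing, ion transport, transcription factors) passed by limma. At an unadjusted p under 0.05 the counts were 0, 4, 2 and 0, DESeq2 called 1 ion transporter, and edgeR called none.

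The promoters of the members were searched for the E-box that these factors bind, CACGTG, and for the longer forms TCACGTGA and GTCACGTGAC that contain it. Each of these reads the same on both strands. RefSeq promoters on GRCm38.p6, from 250 bases before to 50 after each start, were matched for 7 of the 10 members, as 9 windows. The E-box was found in those of Atp6v1a and Atp6v0d1, both times as TCACGTGA, and in no other of the 9. Of all 32851 promoters of this length, 7.15% held the E-box, 0.974% TCACGTGA and 0.326% GTCACGTGAC. The motif begins 132 bases before the RefSeq start in Atp6v1a and 4 bases before it in Atp6v0d1. The GENCODE model of Atp6v1a reaches chr16:44139705, so that its motif lies inside that model. That of Atp6v0a1 begins at chr11:101009452, upstream of the window searched, which begins at chr11:101010148. The 270 bases up to 20 after each RefSeq start are printed, on the gene's strand, to show the motif's setting in Atp6v1a and Atp6v0d1, with the motif in capitals. The windows are chr16:44139240-44139509 (- strand) for Atp6v1a and chr8:105566045-105566314 (- strand) for Atp6v0d1.
Atp6v1a: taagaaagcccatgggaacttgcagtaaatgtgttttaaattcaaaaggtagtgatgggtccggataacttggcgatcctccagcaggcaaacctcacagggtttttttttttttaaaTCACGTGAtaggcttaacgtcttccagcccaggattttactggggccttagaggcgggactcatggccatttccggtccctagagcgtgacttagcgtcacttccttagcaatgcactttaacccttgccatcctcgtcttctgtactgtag
Atp6v0d1: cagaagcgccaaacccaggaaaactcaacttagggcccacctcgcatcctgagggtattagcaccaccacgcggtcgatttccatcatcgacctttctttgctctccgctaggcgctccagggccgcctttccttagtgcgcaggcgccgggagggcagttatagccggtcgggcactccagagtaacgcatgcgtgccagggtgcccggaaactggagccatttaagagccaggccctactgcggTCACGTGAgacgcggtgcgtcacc
Atp6v0d1 fell between KO and WT and Atp6v1a came just short of the threshold, as given above. Atp6v1e1 fell with no match in its window, and Atp6v1h, which also fell, had no entry. Of the other subunits, Atp6v0b held 2 E-boxes and Atp6v0e 1.

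Genes outside the pump were ranked by the Pearson correlation of their log2 values with the mean centred log2 value of the 10 members over the 12 libraries, among genes with a mean normalized count of at least 100. The 5 highest were Paqr7 (0.94), Tmem222 (0.91), Pik3cd (0.90), Ap2b1 (0.90) and Clasp1 (0.89). The mean of the 10 is itself correlated at 0.61 with Atp6v0c, the most variable member. With Atp6v0c left out, a choice made after its values were seen, the 5 highest were the lysosomal hexosaminidase subunit Hexa (0.98), Sgms2 (0.98), Cst6 (0.98), Plxnb2 (0.98) and Tspan15 (0.98). Hexa had mean normalized counts of 4770 in WT, 1856 in KO and 2963 in AAV libraries. The libraries share their groups, so these values describe likeness of pattern only.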

How the data were processed

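RNA of 12 quadriceps was sequenced, 4 mice in each of 3 groups. The authors trimmed reads (Trim Galore 0.4.1), mapped them with STAR to the mouse genome (GRCm38v73), used uniquely mapping reads, obtained counts per gene with HTSeq 0.6.1, dropped genes under 10 reads in all libraries and scaled libraries by DESeq2 1.16.1 size factors. The deposited signal values are these normalized counts, in 2 tables that share the KO values. All values turned back into whole reads (100% within 0.01 reads). Columns of the authors' own comparison (log2 fold change, its error, a score, p-value and adjusted p-value) are deposited beside them and were not used. Per-sample columns left out numbered 0. A read that lies wholly within bases shared by a gene and its copy has no single location and was not counted under the authors' rule.

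Here, limma 3.58.1 with a trend (R 4.3.3) was fitted on log2(normalized count + 1) to the 8 libraries of each comparison, over genes with at least 10 in any of them, with Benjamini-Hochberg adjustment over all genes and a call at an adjusted p under 0.05. The 1 added makes fold changes of scarce genes smaller. DESeq2 1.42.0 and edgeR 4.0.16 on the recovered reads, a pseudocount of 0.1, no filter, all 12 libraries in one fit, gene length and GC corrections, the replicate number as a block, and libraries left out were alternatives, with 1 added after seeing the data, the sum of Atp6v0c and its copy. The fits were tested on simulated data. Gene models were GENCODE M21, in which 15186 of 15344 identifiers were found. Copies were sought with BLAST 2.17.0 (90% identity, 100 bases or more), and figures were drawn with matplotlib 3.10.9. Named genes were the 10 members, Gaa, other subunits that passed in any comparison, the 3 genes with the lowest adjusted p of each of 4 pathway lists, and the 5 most like the members. Dmxl2, Oxr1, Lamtor1 and Rraga were named after their values were seen, to complete small counts. Members and lists were chosen with earlier results of these data known. Replicates are separate animals. Depth limits the precision of scarce genes.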

Additional observations from a re-analysis of the deposited data

Results flagged for a closer look

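Of 39 sets of 4 libraries examined (members, the copy, the sum and Gaa in each group), 6 held a library far from the other 3, where chance gives about 1 in 20. Atp6v0c had 194 normalized counts in AAV library 4 and between 27.6 and 38.3 in the other AAV libraries. Atp6ap1 had 2577 in WT library 3 and between 4266 and 4327 in the other WT libraries. The sum of Atp6v0c and Atp6v0c-ps2 was 622 in WT library 2, against 364 to 403 in the others, and 175 in AAV library 1, against 281 to 289. Gaa had 14640.2 in WT library 2, against 324 to 460.3, and 9854 in AAV library 4, against 499.6 to 947. AAV library 4 was thus apart in both Atp6v0c and Gaa, whereas WT library 2 was apart in Gaa and in the sum but not in Atp6v0c (38.3).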

How the results depend on the processing

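Of 570 values of single members under alternatives, 538 kept their direction and their side of the threshold. The rise of Atp6v0c between KO and WT became -0.0915 with its copy summed, and its value between AAV and WT -0.77. Reversals among members that passed in neither setting were Atp6v0a1 between AAV and KO (0.14 with edgeR on total counts, 0.0563 with the gene length correction, and between -0.147 and 0.013 with 1 library left out, above 0 without KO replicate 4 or AAV replicate 2), Atp6v0d1 between AAV and KO (-0.0036 with the length correction), Atp6v1b2 between AAV and WT (0.12 with total counts, and between -0.0889 and 0.0020 with 1 library left out, above 0 without AAV replicate 1) and Atp6v1d between AAV and WT (0.0518 with total counts). The cause was not tested. Scaling by total counts also moved the median of all genes, to 0.23 between AAV and KO and 0.12 between AAV and WT. Atp6v0a1 and Atp6v1d lay below it, and Atp6v1b2 lay just below it (0.1175 against 0.1183). Members called were 4 between KO and WT (3 to 7 with 1 library left out, 7 without WT replicate 3, 3 without WT library 2, 5 by DESeq2 and by edgeR with TMM scaling, 6 with the GC correction), 1 between AAV and KO (2 by DESeq2, which added Atp6v1c1, and 2 by edgeR on total counts, which added Atp6v1e1; 1 to 2 with 1 library left out) and 0 between AAV and WT (1 by DESeq2). All genes called were 4097 between KO and WT (2353 to 7163 with 1 library left out, 2636 without WT library 2, which stood apart in Gaa), 3910 between AAV and KO (1961 to 5071) and 193 between AAV and WT (18 to 442, 935 by DESeq2, 892 with all 12 libraries in one fit, 322 with the GC correction, 10 without WT library 2 and AAV library 4). With the replicate number as a block, 2179 genes were called between AAV and KO, and 4, 1 and 0 members in the 3 comparisons. The correlations of same-numbered libraries lay between -0.11 and 0.03 for KO with WT, between -0.18 and 0.06 for AAV with KO and, for AAV with WT, at -0.07, -0.35, 0.55 and 0.48 for numbers 1 to 4, so that not every pair deviated together and the numbers were not taken to pair the animals.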
